A study of Mus musculus with 12 samples.

Results

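The MAP kinase phosphatases and Sprouty inhibitors described here are 10 genes that switch off growth factor and MAP kinase signalling. They are Dusp1, Dusp3, Dusp4, Dusp5, Dusp6, Dusp7, Dusp14, Spry2, Spry4 and Spred1. Their rows were found by symbol, and each gene had exactly 1 transcript cluster annotated to its symbol alone, among 30176 symbols in the table. All 10 passed the filter on low signal, a log2 intensity above about 6.8 on at least 1 array, which left 12563 genes to test. Transcripts of mouse brain cortex were measured on 12 Clariom D arrays, of which 11 enter the comparisons.

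The nontransgenic (Non) mice were wild type FVB/NJ littermates. The transgenic (Tg) mice were rTg4510 mice carrying Tg(Camk2a-tTA)1Mmay and Tg(tetO-MAPT*P301L)4510Kha, backcrossed to the same strain. In these mice the Camk2a promoter drives the transactivator in forebrain excitatory neurons, and the transactivator drives human mutant tau, so the transgene models tau made by those neurons only. Feed was normal (Veh) or held 200 ppm doxycycline (Dox), which shuts off the transactivator, for 35 days from an age of 3.5 months. There were 3 arrays of Non + Veh (of 1 male and 2 females), 2 of Non + Dox (males), 3 of Tg + Veh (of 2 males and 1 female) and 3 of Tg + Dox (of 1 male and 2 females). Another Tg + Veh array, replicate 4, failed the authors' quality control and is given only where named.

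The labels held for genotype at Fgf14, which the tau transgene interrupts: its log2 intensity was 10.85 to 11.26 in the Tg groups and 12.01 to 12.29 in the Non groups. At Esyt2, beside the insertion of the transactivator transgene, Non + Veh 3 and Non + Dox 2 lay at 9.60 and 9.61, the level of the Tg arrays (9.45 to 9.74), although they are labelled wild type. The other Non arrays lay at 10.86 to 11.23. The members' differences without those Non arrays are given together, with the effect of doxycycline in Non mice. Neuronal markers fit the labelled tissue, with all 8 on the list detected. The sources used here do not say how many mice gave the RNA of an array, and each p reflects only how far these samples scatter.

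MAP kinases (ERK, JNK and p38) are switched on by phosphorylation of a threonine and a tyrosine, and dual-specificity phosphatases remove both phosphates. Dusp1, Dusp4 and Dusp5 act in the nucleus, Dusp6 and Dusp7 in the cytoplasm on ERK, and Dusp3 and Dusp14 are small phosphatases that lack the kinase-binding domain of the others. Sprouty proteins (Spry2, Spry4) and Spred1 act further upstream, between receptor tyrosine kinases and Raf. Several of these genes are themselves transcribed in response to ERK signalling or neuronal activity, which makes them a negative feedback. In neurons Dusp1 and Dusp5 are known as activity-induced genes, and Dusp6 is a widely used readout of ERK activity.

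The stretches of DNA just before the start sites of Dusp1, Dusp5 and Dusp6 are shown because the first pair hold known response elements of activity-induced genes and Dusp6 had the largest difference between genotypes. They are the 250 bases before the RefSeq start (GRCm38.p6), at chr17:26508473-26508722 on the minus strand, chr19:53528895-53529144 on the plus strand and chr10:99262981-99263230 on the plus strand. Capitals mark matches to the motifs searched on both strands. These were the cAMP response element TGACGTCA and its core TGACG, which overlaps the full element, the AP-1 site TGAGTCA, the ETS site CCGGAAGT, TATAAA, and the CArG box bound by serum response factor.
Dusp1: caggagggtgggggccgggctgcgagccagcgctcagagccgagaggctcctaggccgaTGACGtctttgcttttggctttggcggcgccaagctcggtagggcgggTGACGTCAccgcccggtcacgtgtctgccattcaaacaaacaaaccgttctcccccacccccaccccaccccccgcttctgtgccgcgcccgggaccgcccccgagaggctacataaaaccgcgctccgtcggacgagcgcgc
Dusp5: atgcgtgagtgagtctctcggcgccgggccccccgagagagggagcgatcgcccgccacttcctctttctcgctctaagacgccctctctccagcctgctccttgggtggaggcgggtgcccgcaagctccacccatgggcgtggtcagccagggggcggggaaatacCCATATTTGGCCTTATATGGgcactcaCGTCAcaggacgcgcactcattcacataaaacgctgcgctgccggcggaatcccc
Dusp6: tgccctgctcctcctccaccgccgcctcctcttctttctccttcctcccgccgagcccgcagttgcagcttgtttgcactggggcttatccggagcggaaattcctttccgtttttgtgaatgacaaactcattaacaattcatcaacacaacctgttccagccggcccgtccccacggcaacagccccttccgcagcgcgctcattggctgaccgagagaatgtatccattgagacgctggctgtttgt
Dusp1 held a full cAMP response element, which 1.55% of 32851 such windows of the mouse genome held, and a separate core, which 17.8% held. Dusp5 held 2 adjoining CArG boxes (1.47% of windows hold at least 1) and a core. The other 6 members with a window, Dusp6 among them, held none of the motifs searched. A match is a description of the letters, not a measured binding site.

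On normal feed, where the comparison asks what the tau transgenes change, all 10 members had a lower mean in Tg + Veh than in Non + Veh, as had 40.5% of all genes tested (59.4% had a higher mean). None of them passed the test (limma, adjusted p under 0.05), which called 0.135% of all genes lower and 1.85% higher. At an unadjusted p under 0.05, 5 of the 10 were lower (Dusp4, Dusp5, Dusp6, Dusp7 and Spry4) and none higher, against 3.43% and 10.2% of all genes. Of these, Dusp4 and Dusp5 lay below the filter level on all Tg + Veh arrays. The median log2 change of the members was −0.27, and that of all genes tested was 0.02. The members were chosen with earlier results of these data known, so these shares and medians are a description only. The differences of these 5 genes, between 0.27 and 0.51 on the log2 scale, were small beside that of Egr1, an activity-induced transcription factor, which fell by 1.15 (adjusted p = 0.00451, limma).

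Dusp6, the cytoplasmic ERK phosphatase, had the largest difference. Its log2 intensity was 10.58, 10.96 and 10.50 on the Non + Veh arrays and 10.28, 10.16 and 10.07 on the Tg + Veh arrays. Every Tg + Veh array lay below every Non + Veh array. The difference was −0.51 (standard error 0.16, 95% interval −0.87 to −0.14), or 0.704-fold, with an unadjusted p of 0.012 and an adjusted p of 0.196 in limma. It kept an unadjusted p under 0.05 under each of 21 alternative settings, at up to 0.0475 without Non + Veh 2. Tg + Veh 4, which failed quality control, lay at 10.24, among the other Tg + Veh arrays.

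Dusp6 was also low on doxycycline feed. It lay at 10.14 and 10.38 on the Non + Dox arrays, below all Non + Veh arrays, and at 9.93, 10.44 and 10.42 on the Tg + Dox arrays. The mean of Non + Veh, 10.68 ± 0.243 (SD, n = 3), thus stood above those of the 3 other groups, which were 10.26, 10.17 and 10.26 and did not differ beyond their spread. The feed difference in Non mice was −0.42 (95% interval −0.83 to −0.01, unadjusted p = 0.0444, adjusted p = 0.459 in limma). The interaction of genotype and feed was 0.52 (95% interval −0.03 to 1.06, adjusted p = 0.629).

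Dusp7, the other cytoplasmic ERK phosphatase, lay at 10.38, 10.39 and 10.15 in Non + Veh and at 10.15, 10.06 and 9.88 in Tg + Veh. The groups touched but did not cross, since Non + Veh 3 and Tg + Veh 1 shared a value to the last digit. The difference was −0.28 (95% interval −0.48 to −0.07, adjusted p = 0.213 in limma). On Dox feed Dusp7 was at 10.16 and 10.15 in Non mice and at 10.09, 10.24 and 10.01 in Tg mice, and these groups overlapped.

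Of the nuclear phosphatases, Dusp5, which acts on ERK, lay at 6.79, 7.24 and 6.68 in Non + Veh and at 6.56, 6.73 and 6.41 in Tg + Veh. Non + Veh 2 was high and Tg + Veh 3 low, and the groups overlapped. The difference was −0.34 (95% interval −0.64 to −0.04, adjusted p = 0.306 in limma), and it was −0.17 (unadjusted p = 0.0852) without Non + Veh 2. On Dox feed Dusp5 lay at 6.94 and 6.89 in Non mice and at 6.66, 6.73 and 6.73 in Tg mice, with no overlap, and the difference there was −0.21 (95% interval −0.55 to 0.13, adjusted p = 0.905). Both Non + Dox arrays are male, and with sex as a term that difference was −0.06 (unadjusted p = 0.668). That term was estimated from the other groups, as Non + Dox holds no female. The male of Tg + Dox, at 6.66, lay below both Non + Dox males and below the females of its own group. Over both feeds the genotype difference of Dusp5 was −0.27 (95% interval −0.50 to −0.05, unadjusted p = 0.0233, adjusted p = 0.317), the smallest p of any member in that comparison. Dusp5 lay below the filter level on all arrays of Tg + Veh and Tg + Dox, so it passed that filter only through Non arrays.

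Dusp4, which acts on ERK and JNK, lay at 6.93, 6.96 and 6.70 in Non + Veh and at 6.73, 6.54 and 6.52 in Tg + Veh. Only Non + Veh 3 and Tg + Veh 1 overlapped. The difference was −0.27 (95% interval −0.50 to −0.03, adjusted p = 0.295 in limma). Dusp4 and Dusp5 sat close to the filter level.

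Dusp1, the phosphatase of ERK, JNK and p38 that is induced as an immediate-early gene, had the largest SD of the members in both groups on normal feed (0.439 in Non + Veh and 0.548 in Tg + Veh), but not in those on doxycycline. It lay at 11.12, 11.95 and 11.30 in Non + Veh, 11.57, 11.31 and 10.52 in Tg + Veh, 11.35 and 11.64 in Non + Dox, and 11.21, 11.30 and 10.94 in Tg + Dox. The genotype difference on normal feed was −0.32 with a 95% interval of −0.97 to 0.33 (adjusted p = 0.651 in limma), which holds both the difference seen for Dusp6 and none. On Dox feed the Tg arrays all lay below the Non arrays (difference −0.35, 95% interval −1.07 to 0.38, adjusted p = 0.939). Non + Veh 2, the only male of its group, was highest there at 11.95, and Tg + Veh 3, the only female of its group, lowest at 10.52. In Tg + Dox the male, at 11.21, lay between the females. A difference with sex therefore cannot be told apart from these single arrays. With this limit, Dusp1 also differed with sex, without passing the test. In a fit with sex as a term it was higher in males by 0.59 (95% interval 0.21 to 0.96, unadjusted p = 0.00686, adjusted p = 1.00), where 1.91% of all genes were higher and 2.56% lower in males at an unadjusted p under 0.05, and 0.0239% and 0.0318% after adjustment. With that term its genotype difference was −0.52 on normal feed (unadjusted p = 0.029, adjusted p = 0.277), while on Dox feed it turned to 0.04 (unadjusted p = 0.862). Non + Dox holds no female and adds nothing to that term, and the Tg + Dox male lay below both Non + Dox males. In the same fit Spry4 no longer had an unadjusted p under 0.05.

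**Figure D1:**
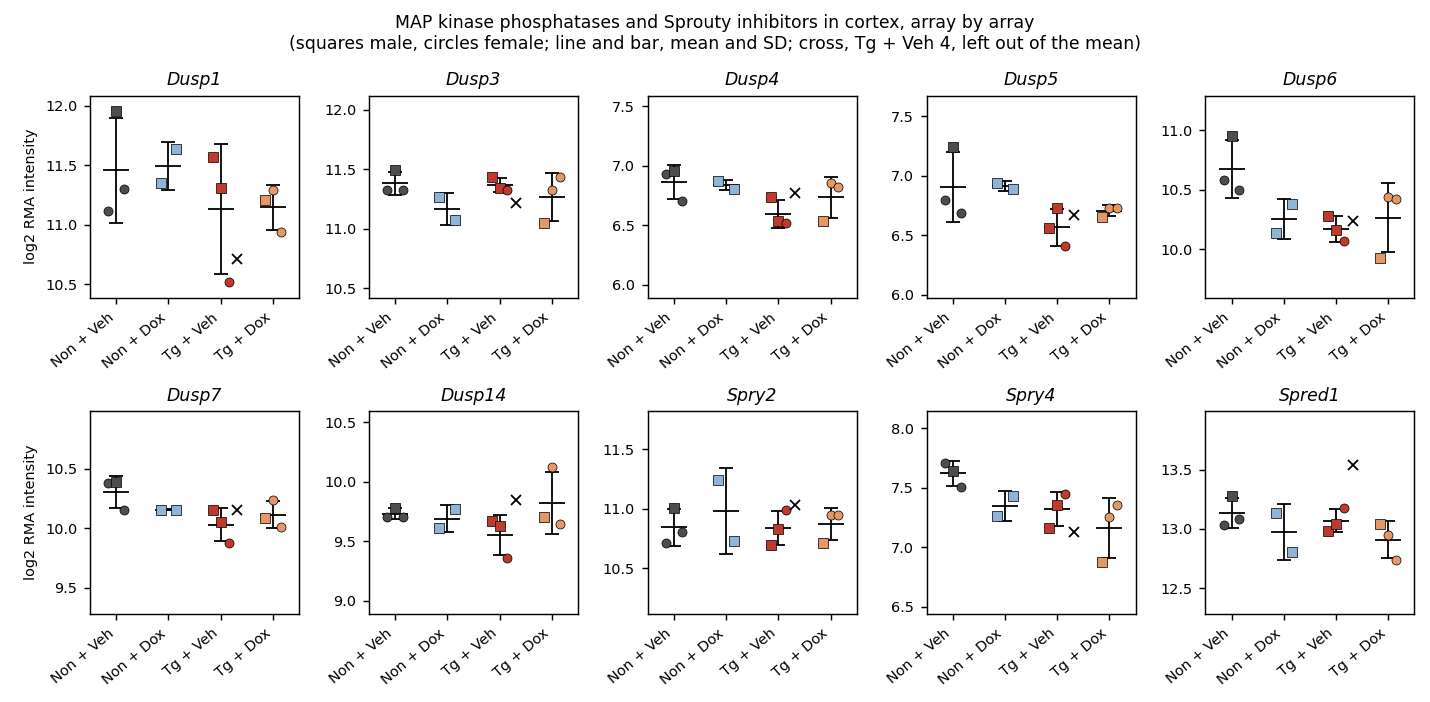
Log2 RMA intensity of each member (vertical axis, the same span in every panel) by group (horizontal axis). Squares are male and circles female arrays, lines and bars the mean and SD, and the cross is Tg + Veh 4, left out of the mean. The 3 Tg + Veh arrays in the mean lie below every Non + Veh array for Dusp6, Dusp14 and Spry4, and Spred1 on Tg + Veh 4 is the highest of all arrays at 13.54.

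Among the upstream inhibitors, Spry4 lay at 7.71, 7.64 and 7.51 in Non + Veh and at 7.16, 7.36 and 7.45 in Tg + Veh, with no overlap. The difference was −0.30 (95% interval −0.59 to −0.01, adjusted p = 0.349 in limma). Spry4 was also low on doxycycline, at 7.26 and 7.44 in Non + Dox, below all Non + Veh arrays, and at 6.87, 7.26 and 7.36 in Tg + Dox. Over both genotypes its feed difference was −0.22 (95% interval −0.44 to 0.00, unadjusted p = 0.05, adjusted p = 0.285). Its lowest mean, 7.16 ± 0.255 (SD, n = 3), was in Tg + Dox, and the means of Non + Dox, Tg + Veh and Tg + Dox did not differ beyond their spread.

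Spry2 and Spred1 showed no difference of that size between genotypes. Spry2 lay between 10.71 and 11.01 in Non + Veh and between 10.70 and 10.99 in Tg + Veh, and the difference was −0.0045 (95% interval −0.32 to 0.32). Spred1, which brings neurofibromin to Ras, lay between 13.04 and 13.28 in Non + Veh and between 12.99 and 13.17 in Tg + Veh, and the difference was −0.07 (95% interval −0.32 to 0.19). On Tg + Veh 4, the array left out, Spred1 was at 13.54, above all 11 others.

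The atypical phosphatases differed from each other. Dusp14 lay at 9.70, 9.78 and 9.70 in Non + Veh and just below at 9.67, 9.62 and 9.36 in Tg + Veh, a difference of −0.18 (95% interval −0.47 to 0.11, adjusted p = 0.587 in limma) that was −0.08 without Tg + Veh 3. Dusp3 lay between 11.33 and 11.49 in Non + Veh and between 11.33 and 11.44 in Tg + Veh, a difference of −0.01 (95% interval −0.24 to 0.21). In all, 3 of the 10 members (Dusp6, Dusp14 and Spry4) had no overlap between Tg + Veh and Non + Veh, all of them lower in Tg + Veh, against 5.28% of all genes lower and 13.5% higher without overlap. With Tg + Veh 4 this no longer held for Dusp14, which lay at 9.84 there, and it held for Dusp6 and Spry4.

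The arrays of a group did not scatter independently from member to member. Non + Veh 2, the only male of its group, was the highest Non + Veh array for 9 of the 10 members, Spry4 being the exception, as it was for 38.3% of all genes. Tg + Veh 3, the only female of its group, was the lowest Tg + Veh array for 7 of the 10, against 32.2% of all genes. The same arrays were extreme for immediate-early genes, transcription factors and effectors switched on by neuronal activity: Non + Veh 2 was highest for 13 of 16 and Tg + Veh 3 lowest for 14 of 16. Without Non + Veh 2, only Dusp6 kept an unadjusted p under 0.05, and the members with a lower mean in Tg + Veh went from 10 to 7. Without Tg + Veh 3 only Dusp6 and Spry4 kept it, and the difference of Dusp1, −0.07 without Non + Veh 2, was −0.02. The part of these single arrays' sex in the result was not tested beyond the fit with sex as a term.

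**Figure D2:**
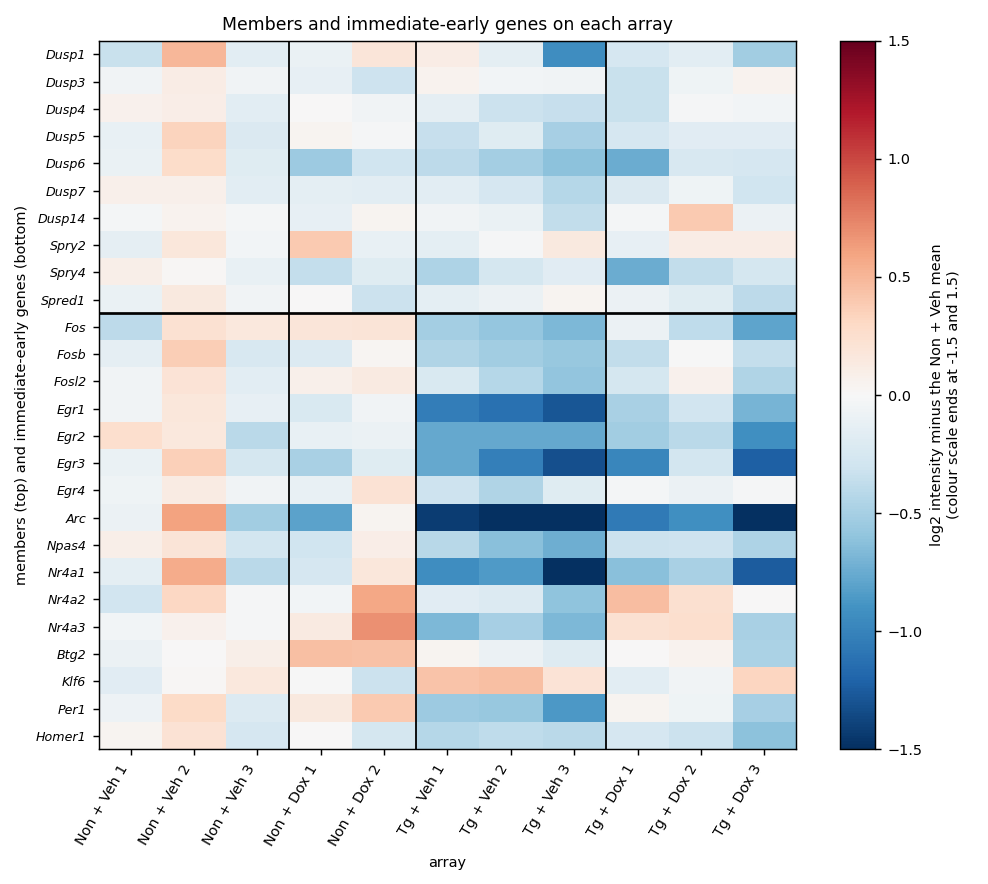
Log2 intensity minus the Non + Veh mean (colour, red higher and blue lower, ends at −1.5 and 1.5) of the 10 members above the line and 16 immediate-early genes below it, for each of 11 arrays. Non + Veh 2 is the reddest column of its group and Tg + Veh 3 the bluest of its own, and Arc, Egr1 and Nr4a1 differ by more than any member.

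Suppression of the transgene is addressed by Tg + Dox against Tg + Veh. The paper reports that this feed lowered total tau protein but left some, so the comparison is of less tau rather than none. No member passed in limma or had an unadjusted p under 0.05 there, where 5.67% of all genes were higher and 10.4% lower at that level, and 0.0796% higher and 0.613% lower after adjustment. The groups overlapped for all 10 members, where 5.31% of all genes were higher and 11.7% lower without overlap. Of the 10, 7 had a higher and 3 a lower mean, against 43% of all genes higher and 56.9% lower. The median log2 change of the members was 0.06 (all genes, −0.02).

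Dusp14 had the largest difference, 0.27 (95% interval −0.02 to 0.56, adjusted p = 0.338 in limma). Tg + Dox 2 was high at 10.12 and the other Tg + Dox arrays lay at 9.70 and 9.64, and without Tg + Dox 2 the difference was 0.12. For the 5 genes lower in Tg + Veh, the differences on doxycycline were 0.14 for Dusp4 (95% interval −0.10 to 0.37), 0.14 for Dusp5 (−0.16 to 0.44), 0.09 for Dusp6 (−0.27 to 0.46), 0.08 for Dusp7 (−0.12 to 0.29) and −0.16 for Spry4 (−0.45 to 0.13). For Dusp4, Dusp5 and Dusp7 these intervals hold both no change and a return to the Non + Veh level, so the arrays do not tell these apart. Single arrays also moved the values: without Tg + Dox 1 they were 0.24 for Dusp4 (unadjusted p = 0.0331), 0.26 for Dusp6 and −0.02 for Spry4. Without Tg + Dox 2 they were 0.08 for Dusp4, 0.0044 for Dusp6 and 0.02 for Dusp7, and without Tg + Veh 3 they were 0.06 for Dusp5 and 0.01 for Dusp7. This comparison and the previous one share the Tg + Veh arrays, so an array that is low there moves both. Egr1 differed by 0.66 in Tg + Dox (adjusted p = 0.0513).

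Tg + Dox 1, the only male of its group, was the lowest Tg + Dox array for 6 of the 10 members, among them Dusp6, Dusp4 and Spry4, as it was for 45.7% of all genes. It was lowest for 2 of the 16 immediate-early genes.

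Doxycycline without the transgenes is addressed by Non + Dox against Non + Veh, with 2 arrays against 3. No member passed in limma, nor did any gene tested. At an unadjusted p under 0.05 Dusp6 was lower, as were 4.03% of all genes, and no member was higher (6.54% of all genes). The groups did not overlap for Dusp3, Dusp6 and Spry4, all lower on doxycycline, as in 10.1% of all genes (14.7% were higher without overlap). Dusp3 lay at 11.26 and 11.07 in Non + Dox against 11.33 to 11.49 in Non + Veh, a difference of −0.22 (95% interval −0.47 to 0.04, adjusted p = 0.535), or −0.12 without Non + Dox 2. Spry4 differed by −0.27 (95% interval −0.60 to 0.05, adjusted p = 0.538), or −0.14 with sex as a term (unadjusted p = 0.33).

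Both Non + Dox arrays are male and 2 of the 3 Non + Veh arrays female, so feed and sex are partly confounded in Non mice. With sex as a term the feed difference of Dusp6 was −0.44 (unadjusted p = 0.0764). It was −0.28 without Non + Veh 2 (unadjusted p = 0.139) and −0.30 without Non + Dox 1 (unadjusted p = 0.233), so that its unadjusted p under 0.05 was lost in each of these fits.

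Leaving out Non + Veh 3 and Non + Dox 2, the arrays at the Tg level of Esyt2, leaves 1 Non + Dox array, which is then assumed to vary like the other groups. The feed difference of Dusp6 was then −0.63 (unadjusted p = 0.0372), that of Spry4 −0.42, that of Dusp3 −0.15 and that of Spry2 0.38, against 0.14 with those arrays. That of Dusp1 turned from 0.04 to −0.18. All 10 members again had a lower mean in Tg + Veh than in Non + Veh, with differences of −0.60 for Dusp6, −0.45 for Dusp5, −0.40 for Dusp1, −0.36 for Spry4 and −0.35 for both Dusp4 and Dusp7. Of these, 4 in place of 5 had an unadjusted p under 0.05, and Spry4 was at 0.0514. On Dox feed the genotype differences of Dusp1 and Dusp5 were −0.21 and −0.23.

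Markers of endothelial and mural cells were low in Non + Dox too: 7 of 8 had a lower mean, none passed, and their summed signal was 11.38 to 11.45 on the log2 scale against 11.72 to 11.95 in Non + Veh. Their part in the feed differences was not tested.

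**Figure D3:**
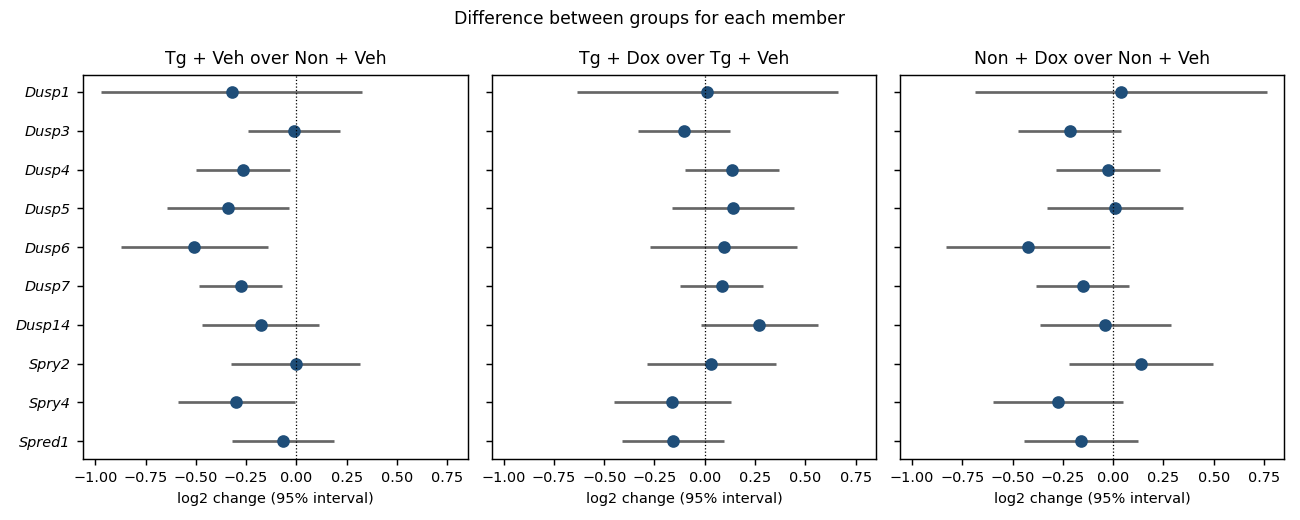
Log2 change of each member (horizontal axis, points) with its 95% interval from limma (lines), for genotype on normal feed, doxycycline in Tg mice and doxycycline in Non mice. On the left, the intervals of Dusp4, Dusp5, Dusp6, Dusp7 and Spry4 lie below 0. In the middle no interval leaves 0, and on the right only that of Dusp6 does.

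On Dox feed alone, Tg and Non mice differed in no member and in no gene tested after adjustment. Dusp1 and Dusp5 were lower in Tg + Dox without overlap (8.92% of all genes, with 6.31% higher). With sex as a term their differences were 0.04 and −0.06, but Non + Dox, without females, adds nothing to that term. For both genes the Tg + Dox male lay below both Non + Dox males. Dusp5 was below the filter level on all Tg arrays. No member had an unadjusted p under 0.05 (3.88% of all genes lower, 2.13% higher), and Dusp6 differed by 0.01 (95% interval −0.40 to 0.42). Over both feeds, Dusp4, Dusp5, Dusp7 and Spry4 were lower in Tg mice at an unadjusted p under 0.05, where 4.15% of all genes were lower and 7.65% higher, and no member passed in limma (0.0955% of all genes lower, 0.7% higher). Their adjusted p values were 0.317 to 0.409. The two-way analysis of variance of the methods at its threshold of 0.01 called no member for genotype, feed or interaction, the smallest p being 0.0425 for Dusp5 and genotype. Neither the interaction nor feed over both genotypes called a member in limma or gave one an unadjusted p under 0.05. For the interaction 1.58% of all genes were higher and 6.65% lower at that level, and for feed 8.01% and 9.54% (0.183% and 0.318% after adjustment).

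The remaining genes of the family and pathway were taken from lists. Of 5 other phosphatases with a kinase-binding domain, Dusp8 and Dusp16 were detected. Dusp16, which acts on JNK and p38, ran the other way from the members: it lay at 7.11, 7.07 and 7.23 in Non + Veh and at 7.50, 7.48 and 7.51 in Tg + Veh. The groups did not overlap, and the difference of 0.36 (95% interval 0.18 to 0.55, unadjusted p = 0.00173) did not pass in limma (adjusted p = 0.0686). In Tg + Dox it lay at 7.01, 7.27 and 7.36 (difference −0.28, adjusted p = 0.152). Dusp8 differed by −0.01 between genotypes. None of 11 atypical dual-specificity phosphatases passed, with log2 changes of −0.18 (Dusp18) to 0.14 (Ssh2) and a median of −0.01. Of the other Sprouty and Spred genes, Spred2 differed by −0.15 and Spry3 by −0.14, and Spred3 by 0.07, without passing.

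Upstream of Ras, Fgfr3, a fibroblast growth factor receptor found mainly in astrocytes, rose by 0.27 in Tg + Veh (95% interval 0.16 to 0.37, adjusted p = 0.0265, limma). It was the only one of 9 receptors and neurotrophins to pass, and the median of that list was 0.16. Of 10 Ras regulators none passed. Rasgrf2, a calcium-activated exchange factor of neurons, differed by −0.63 (adjusted p = 0.13) and Ptpn11, a phosphatase that promotes Ras signalling, by 0.30 (adjusted p = 0.0938). None of the kinases and scaffolds passed. The median was 0.02 over 9 Raf, MEK and scaffold genes, with Ksr2, a scaffold, at −0.25. It was −0.03 over 8 p38 and JNK pathway kinases, with Mapk11 at −0.62 (95% interval −1.33 to 0.10, adjusted p = 0.44 in limma). Of 10 ERK effectors and ERK-responsive factors none passed, with a median of −0.02 and Ier5 at −0.32. Of 16 immediate-early genes, 15 had a lower mean, among them Egr1, the only one to pass, and the median was −0.59. Klf6 had a higher mean, by 0.36 (adjusted p = 0.312 in limma). Arc, an effector of synaptic plasticity, differed by −1.69 (adjusted p = 0.065) and Nr4a1, an orphan nuclear receptor, by −1.21 (adjusted p = 0.136).

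**Figure D4:**
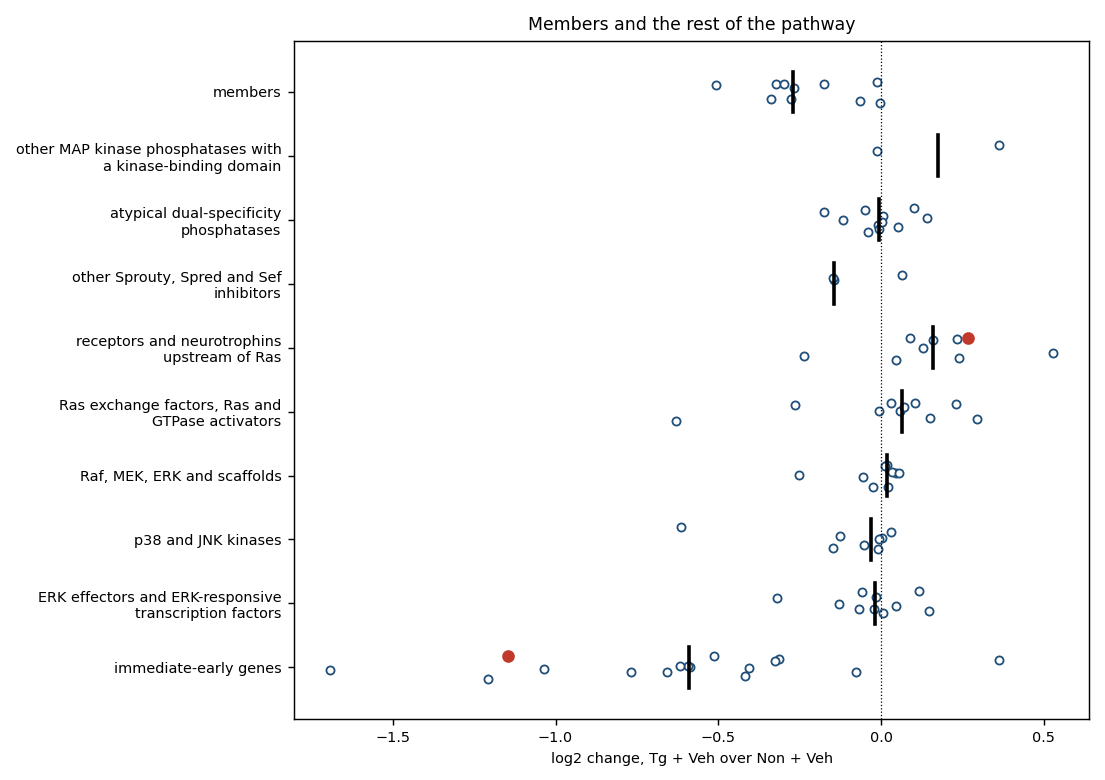
Log2 change in Tg + Veh over Non + Veh (horizontal axis) of each gene tested in 10 lists (rows; the vertical scatter within a row has no meaning). Open points did not pass in limma, filled points did, and bars are medians. The median is −0.27 for the members and −0.59 for the immediate-early genes, and the only filled points are Egr1 at −1.15 and Fgfr3 at 0.27.

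Dusp6 and Dusp5 had the largest genotype differences on normal feed over the 11 arrays, so genes of like pattern were looked up for them by Pearson's r over the 11 arrays, as a description. For Dusp6 these were Klhdc3 (r = 0.94), Gdpd5 (r = 0.936) and Napepld, an enzyme of N-acylethanolamine synthesis (r = 0.933). For Dusp5 they were Trp53i11 (r = 0.881), Syt1, the calcium sensor of synaptic vesicles (r = 0.877), and Slx4 (r = 0.877).

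The markers of several cell types differed between these groups. In Tg + Veh over Non + Veh, all 6 astrocyte, all 5 microglial and all 7 oligodendrocyte markers tested had a higher mean. Of these, 4, 3 and 5 passed in limma. Their summed signals on the log2 scale were 17.85 to 18.26, 11.87 to 12.58 and 14.36 to 14.62 in Tg + Veh, against 17.22 to 17.35, 10.36 to 10.58 and 13.88 to 14.06 in Non + Veh. None of 8 neuronal markers passed, and their median change was −0.12, with a summed signal of 19.68 to 19.75 against 19.80 to 19.99. None of 4 markers of oligodendrocyte precursors passed, though their sum was 10.54 to 10.58 in Tg + Veh and 10.36 to 10.42 in Non + Veh, without overlap. Choroid plexus markers, of which 3 of 6 were detected (Ttr, Kl and Clic6), varied most from array to array among these lists. Their sum ranged from 10.95 to 14.65 in Non + Veh, 9.45 to 14.79 in Non + Dox, 10.07 to 15.29 in Tg + Veh and 8.52 to 11.68 in Tg + Dox, and none passed. In Tg + Dox the neuronal sum was 19.70 to 19.87 and the microglial sum 10.73 to 11.45. The part of these shifts in the lower signals of the members was not tested. In tissue RNA, fewer cells of a type and less RNA per cell cannot be told apart.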

How the data were processed

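RNA of mouse cortex was hybridized to Clariom D arrays, 1 array per sample. The authors computed log2 signals with the Robust Multi-Array algorithm (RMA) and deposited these log2 values, which were used as given. The authors removed 1 Tg + Veh array after quality control, and 11 arrays were compared here. Of 65956 transcript clusters, 30638 carry 1 symbol in the platform annotation and 2176 several. A symbol took its row of highest mean. The 12563 genes above about 6.8 on at least 1 array were fitted with limma 3.58.1 (R 4.3.3; lmFit, eBayes) as 4 groups in 1 fit, with Benjamini-Hochberg adjustment over all genes, and an adjusted p under 0.05 was the call. Intervals are 95% intervals of single genes, unadjusted. The fit was tested on simulated data with independent noise and changes larger than that of any member. That test gives no result for differences of the members' size. The methods use a two-way ANOVA instead, which was run as an alternative.

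All 10 members are named. Of the other lists, called genes and up to 4 of the largest genotype difference were eligible to be named. Members and lists were chosen with earlier results of these data known. RMA puts all arrays on 1 distribution, and 60.6% of the genes tested share an exact value between arrays, 5 of the 10 members among them. The number of arrays limits the precision. Promoter windows came from RefSeq (GRCm38.p6), where 8 members matched.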

Additional observations from a re-analysis of the deposited data

How the results depend on the processing

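No member was called in any of 7 comparisons with all 12 arrays, each array left out, sex as a term, or other filters, rows, centring or spread. Nor was any in the 4 comparisons of single groups fitted to only the groups compared, or in the 3 of both factors under the methods' two-way ANOVA. The count of members at an unadjusted p under 0.05 in Tg + Veh over Non + Veh, 5, ranged from 1 to 5 when single arrays were left out: leaving out Non + Veh 2 gave 1, leaving out Non + Veh 1 gave 2, as did Tg + Veh 3, and Tg + Veh 1 and Tg + Veh 2 each gave 3. With all 12 arrays it was 5, and Dusp6 then differed by −0.49 (unadjusted p = 0.00693, adjusted p = 0.212). Of 210 values of single members in that comparison under 21 alternatives, 10 had the other sign, all of them Dusp3, Spry2 or Spred1, whose differences lay near 0. As no member was called, such a change of sign turned no call. The calls over all genes in that comparison, 232 higher and 17 lower, were 0 and 1 with all 12 arrays, 40 and 9 with only the groups compared, and 59 to 225 higher with single arrays left out.

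Replicate numbers are shared across groups, but only 4 of 15 same-numbered pairs had an r over 0.1 (−0.30 to 0.41) and 2 of 11 arrays correlated best with their own number, so the numbers were not taken as pairs. With a replicate block, 0 members were called and 5 had an unadjusted p under 0.05. Its lowest adjusted p was 0.0814, for Dusp7. Low signal limits Dusp4 and Dusp5, which lie near the filter level and below it on all Tg + Veh arrays. Dusp5 lay below it on all Tg + Dox arrays too.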
